A study of Homo sapiens with 6 samples.

Results

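The ERBB receptors and their EGF-family ligands were followed in melanoma cells with a knockdown of the protease gene MMP9, whose product, a gelatinase, the title of the series ties to cleavage of the histone H3 tail. The set was chosen by gene symbol, and it and the gene lists below were drawn up with earlier results of these data known. Setting them beside all tested genes is therefore description only. It names 10 genes, the receptors EGFR, ERBB2, ERBB3 and ERBB4 and the ligands TGFA, HBEGF, AREG, EREG, BTC and NRG1. Of these, 8 had a row among the 18539 genes of the deposited table, and all 8 passed the filter on low values, which 17194 genes passed. ERBB4 and EREG had no row and were not analysed here.

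RNA-seq had been made from A375, a human malignant melanoma line known for an activating BRAF mutation, grown in medium with 10% fetal bovine serum. The cells labelled shMMP9 (3 libraries) had been infected with lentivirus carrying a pLKO.1 vector with a short hairpin RNA against MMP9, and the cells labelled shControl (3 libraries) carried a control hairpin. Per the labels, lentivirus made in 293T cells was added with 8 μg/ml polybrene, and cells were kept under 2 μg/ml puromycin for 2 weeks. A single hairpin and a single cell line were used, and the labels do not say that replicates came from separate cultures. A p-value here therefore rests on how far these libraries spread, and that spread may be technical. Estimated depth over the genes of the table ran from 21854108 to 25895675 reads in shMMP9 libraries and from 24319952 to 28005530 reads in shControl libraries. Levels are given as scaled counts, gene counts that the authors brought to the same upper quartile in each library. A log2 change is the difference of log2(scaled count + 1), shMMP9 minus shControl, and understates the change of weakly expressed genes. A gene is called where limma's moderated test gave an adjusted p under 0.05, with Benjamini-Hochberg adjustment over all 17194 genes tested.

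The hairpin was directed at a stretch of the MMP9 coding sequence, shown because it is the agent that separates the groups.
shMMP9 target: cattcagggagacgcccattt
This 21-base target was found whole in 1 of 206694 annotated transcripts, that of MMP9 on chromosome 20. The longest run of bases it shared with any protein-coding transcript of the named receptors and ligands was 11, in NRG1, and 6 to 9 in the other genes. MMP9 itself stood at scaled counts of 16.2, 14.6 and 17.1 in shMMP9 cells, against 26.1, 24.3 and 28.7 in shControl cells. The groups did not overlap, and 0.605 of the control level remained (log2 change -0.69, SE 0.0847, limma adjusted p = 1.25e-05). Of the libraries, shControl replicate 1 stood apart from its group: chi-square per gene was 14.1 and 9.72 against the other shControl libraries and 2.51 to 4.74 between the other pairs within a group. Mitochondrially encoded genes held 0.617 to 0.708% of reads in shMMP9 libraries and 1.64 to 1.79% in shControl libraries, and their part in the results below was not tested.

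ERBB receptors are cell-surface tyrosine kinases that pair up when a ligand binds and then recruit adaptors that feed the ERK and PI3K pathways. EGFR binds TGFA and AREG, EGFR and ERBB4 bind HBEGF, BTC and EREG, and ERBB3 and ERBB4 bind NRG1, a neuregulin. ERBB2 has no known ligand and serves as the preferred partner, while ERBB3 has little kinase activity of its own and signals through its partner. The ligands are made as membrane-bound precursors and are released by ADAM-family proteases. ERBB3 and neuregulin are known from the development of the neural crest, from which melanocytes arise.

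The receptor and ligand transcripts split in both families. ERBB3, TGFA, AREG and BTC were higher in shMMP9 cells, EGFR, HBEGF and NRG1 were lower, and ERBB2 rose by a small amount. At an adjusted p under 0.05, 5 of the 8 genes were called higher and 3 lower by limma, where 25.0% of all tested genes were called higher and 32.5% lower. With a log2 change of 1 or more as well, ERBB3, TGFA and AREG were called higher, where 3.22% of all tested genes were. EGFR and NRG1 were called lower at that size, where 4.96% of all tested genes were. The libraries of the groups did not overlap for any of the 8 genes, a state shared by 62.7% of all tested genes, so that count by itself says little about these genes. The median size of the log2 change, sign aside, was 1.45 over the 8 genes and 0.278 over all tested genes. A larger change than that of NRG1 was seen in 0.733% of tested genes, than that of AREG in 0.936%, than that of ERBB3 in 1.29% and than that of TGFA in 2.22%. For ERBB2 that share was 62.7%, so most genes changed by more than ERBB2 did.

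**Figure D1:**
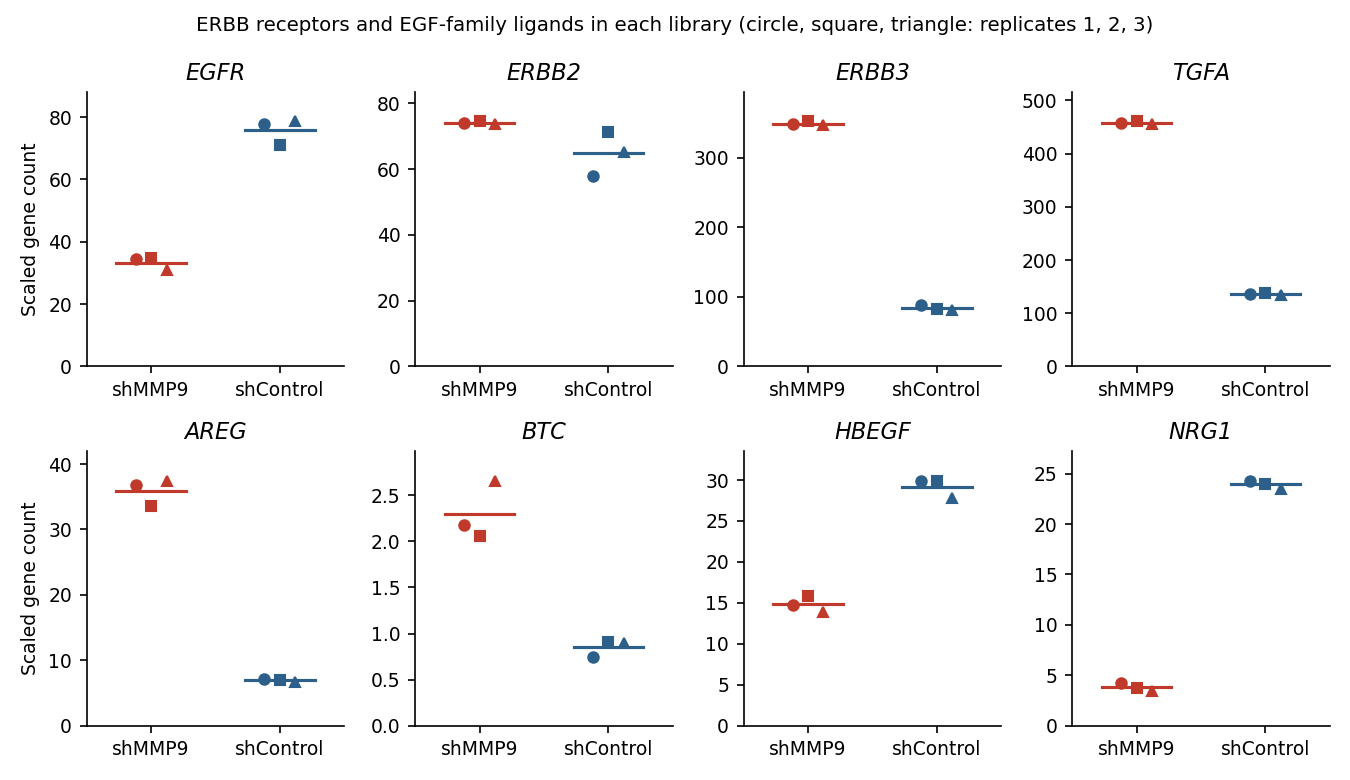
Scaled gene count (y axis, from 0) of each receptor and ligand in the 3 shMMP9 libraries (red, left) and the 3 shControl libraries (blue, right), with circle, square and triangle for replicates 1, 2 and 3 and a line at each group's mean. ERBB3, TGFA, AREG and BTC lie well above the controls, EGFR, HBEGF and NRG1 well below, and the lowest shMMP9 library for ERBB2 (73.7) lies close to the highest shControl library (71.3).

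**Figure D2:**
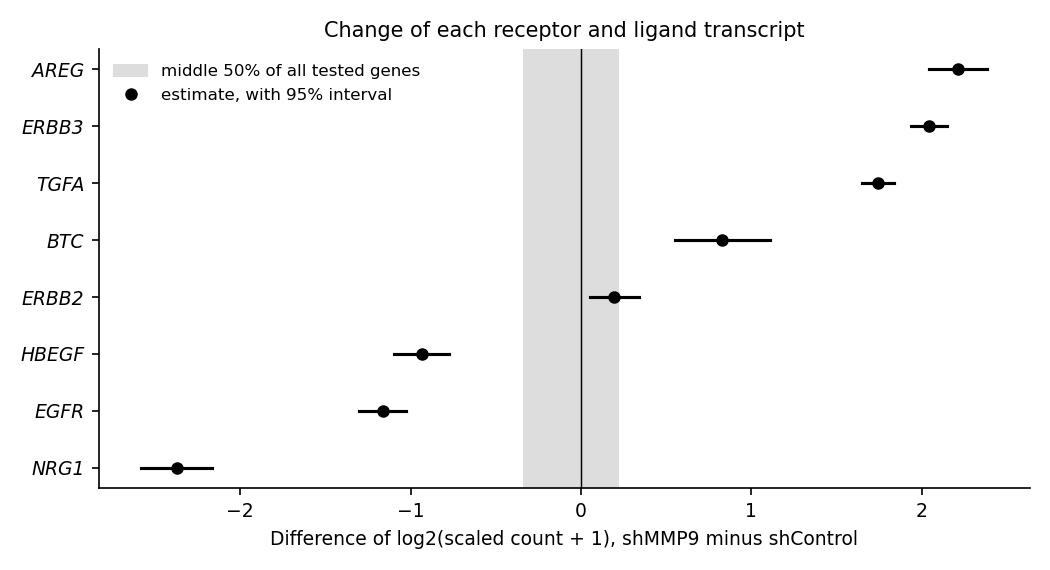
Difference of log2(scaled count + 1), shMMP9 minus shControl, for each of the 8 genes, with its 95% interval from limma; the grey band marks the middle of all tested genes (-0.333 to 0.22). Only the point of ERBB2 (0.19) lies inside the band.

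ERBB3, the neuregulin-binding receptor, had the largest change among the receptors. It stood at scaled counts of 348, 352 and 347 in shMMP9 cells, against 88.8, 82.9 and 80.5 in shControl cells. The lowest shMMP9 library was thus far above the highest shControl library, and the shMMP9 libraries were close to each other. The mean was 349 ± 2.84 in shMMP9 cells and 84.1 ± 4.27 in shControl cells (SD, n = 3 each), a ratio of 4.15. The log2 change was 2.04 (SE 0.0488, 95% interval 1.94 to 2.15, limma adjusted p = 2e-12). An estimated 8880 to 10372 reads lay behind each shMMP9 value and 2157 to 2552 behind each shControl value, so counting error is small beside the difference. In these bulk libraries, more cells with ERBB3 transcripts and more transcripts per cell cannot be told apart, and the same holds for every gene below. ERBB3 (ENSG00000065361.15) lies on chromosome 12, 56076799 to 56103505, plus strand of GRCh38.

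EGFR, the receptor for most of the ligands measured here, was lower in shMMP9 cells. EGFR scaled counts were 34.4, 34.8 and 30.8 in shMMP9 cells, against 77.8, 71.1 and 78.6 in shControl cells. The groups lay far apart, with the highest shMMP9 library well under the lowest shControl library. The mean was 33.3 ± 2.16 in shMMP9 cells and 75.8 ± 4.14 in shControl cells, a ratio of 0.439. The log2 change was -1.16 (SE 0.0638, 95% interval -1.30 to -1.03, limma adjusted p = 4.67e-09), from 835 to 1023 estimated reads per shMMP9 library and 2105 to 2187 per shControl library. EGFR (ENSG00000146648.17) lies on chromosome 7, 55019021 to 55211628, plus strand.

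ERBB2, the receptor without a known ligand, was 1.14 times as high in shMMP9 cells. ERBB2 scaled counts were 74.1, 74.5 and 73.7 in shMMP9 cells, against 58.1, 71.3 and 65.2 in shControl cells. The shMMP9 libraries were nearly level with each other, and the spread lay in the shControl libraries, among which replicate 1 was lowest. The mean was 74.1 ± 0.444 in shMMP9 cells and 64.9 ± 6.61 in shControl cells, and the log2 change was 0.19 (SE 0.0665, 95% interval 0.05 to 0.34, limma adjusted p = 0.0230). This call was not stable. Without shControl replicate 1 the log2 change was 0.12 (limma adjusted p = 0.0600), and the call was also lost without shControl replicate 3 (0.20, limma adjusted p = 0.0527) and without shMMP9 replicate 1, 2 or 3 (limma adjusted p = 0.0682, 0.0648 and 0.0517). It was kept without shControl replicate 2 (0.26, limma adjusted p = 0.00268) and lost with no trend in the variance (limma adjusted p = 0.0827). ERBB2 (ENSG00000141736.13, chromosome 17, 39687914 to 39730426, plus strand) overlaps PGAP3 and MIEN1 on the opposite strand. The strand setting of the counting is not given in the sources used here. To which gene reads from the overlapping stretches were counted is therefore not known. PGAP3, which remodels lipid anchors, had a log2 change of -0.66 (limma adjusted p = 0.000196), and MIEN1 one of 0.00 (limma adjusted p = 0.949).

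TGFA, an EGFR ligand, was the most abundant transcript of the set in both groups per kilobase of exon. The scaled counts of TGFA were 458, 461 and 456 in shMMP9 cells, against 136, 137 and 135 in shControl cells. The libraries of each group fell within a few counts of each other, and the groups were far apart. The mean was 458 ± 2.37 in shMMP9 cells and 136 ± 1.17 in shControl cells, a ratio of 3.37, and the log2 change was 1.74 (SE 0.0430, 95% interval 1.65 to 1.84, limma adjusted p = 2.62e-12). Estimated reads ran from 11616 to 13647 per shMMP9 library and from 3619 to 4227 per shControl library. TGFA (ENSG00000163235.15) lies on chromosome 2, 70447280 to 70554193, minus strand.

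AREG encodes amphiregulin, an EGFR ligand with affinity for heparin, and had the largest rise of the set on the log2 scale used here. With a pseudocount of 4 that of ERBB3 was larger, at 2.00 against 1.86 for AREG. Its scaled counts were 36.7, 33.5 and 37.5 in shMMP9 cells, against 7.09, 7.05 and 6.68 in shControl cells. The control libraries lay close together at a low level, and every shMMP9 library was several times higher. The mean was 35.9 ± 2.10 in shMMP9 cells and 6.94 ± 0.225 in shControl cells, a ratio of 5.17. The log2 change was 2.21 (SE 0.0796, 95% interval 2.04 to 2.39, limma adjusted p = 7.19e-11). The shMMP9 values rested on 845 to 1094 estimated reads and the shControl values on 179 to 217.

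BTC encodes betacellulin, a ligand of EGFR and ERBB4, and was weakly expressed in both groups. Scaled counts of BTC were 2.18, 2.06 and 2.66 in shMMP9 cells, against 0.748, 0.910 and 0.896 in shControl cells. The groups did not overlap, but the values rested on 52 to 72 estimated reads per shMMP9 library and 21 to 28 per shControl library. The mean was 2.30 ± 0.316 in shMMP9 cells and 0.851 ± 0.0895 in shControl cells, a ratio of 2.70. The log2 change was 0.83 (SE 0.128, 95% interval 0.56 to 1.11, limma adjusted p = 9.63e-05). At this low level its size depends on the pseudocount: it was 1.21 with a pseudocount of 0.25, 0.38 with one of 4 and 1.41 with limma-voom on estimated reads. The call held in all of these.

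HBEGF encodes heparin-binding EGF-like growth factor, a ligand of EGFR and ERBB4, and was lower in shMMP9 cells. Its scaled counts were 14.8, 15.8 and 13.9 in shMMP9 cells, against 29.8, 29.9 and 27.9 in shControl cells. The groups were well separated, with little spread in either. The mean was 14.8 ± 0.965 in shMMP9 cells and 29.2 ± 1.17 in shControl cells, a ratio of 0.507, and the log2 change was -0.94 (SE 0.0749, 95% interval -1.10 to -0.77, limma adjusted p = 2.02e-07). Estimated reads numbered up to 440 per shMMP9 library and 746 to 921 per shControl library.

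Promoter sequence is shown for AREG, the ligand with the largest rise, beside EGFR and HBEGF, a receptor and a ligand of it that fell together. The stretches lie upstream of the annotated gene start, from RefSeq on GRCh38.p14, 5′ to 3′ on the gene's strand. Capitals mark matches to CRE (TGACGTCA), AP-1 (TGACTCA), TEAD (CATTCC), M-box (TCATGTG), SOX (ACAAAG) and GC box (GGGCGG) letters on either strand and to TATAAA on the given strand.
AREG, chr4:74444886-74445133, plus strand: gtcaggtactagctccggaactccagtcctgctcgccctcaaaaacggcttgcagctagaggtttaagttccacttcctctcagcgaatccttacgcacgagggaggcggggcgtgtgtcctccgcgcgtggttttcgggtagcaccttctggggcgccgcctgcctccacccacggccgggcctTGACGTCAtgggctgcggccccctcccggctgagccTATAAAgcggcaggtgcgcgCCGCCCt
EGFR, chr7:55018767-55019016, plus strand: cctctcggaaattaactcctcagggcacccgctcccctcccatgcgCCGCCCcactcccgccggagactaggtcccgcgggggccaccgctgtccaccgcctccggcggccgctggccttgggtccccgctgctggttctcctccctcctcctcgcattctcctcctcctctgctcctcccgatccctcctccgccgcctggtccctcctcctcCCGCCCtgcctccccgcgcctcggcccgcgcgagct
HBEGF, chr5:140346632-140346853, minus strand: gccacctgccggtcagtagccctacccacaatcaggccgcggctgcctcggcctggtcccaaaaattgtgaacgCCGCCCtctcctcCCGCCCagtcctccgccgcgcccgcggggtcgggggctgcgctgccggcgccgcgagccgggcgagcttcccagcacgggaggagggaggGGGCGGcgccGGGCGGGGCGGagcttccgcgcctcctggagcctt
The AREG stretch held a CRE at position -65 from the RefSeq start, TATAAA at -29 and a GC box at -9. The EGFR stretch held GC boxes at -204 and -36 and the HBEGF stretch GC boxes at -176, -163, -73, -63 and -58, of which the last pair share a base; neither held TATAAA or a CRE. GC content was 65.3% in the AREG stretch, 73.6% in that of EGFR and 76.1% in that of HBEGF, where the median over the upstream 250 bases of all windows was 58%. Of 35116 RefSeq windows of 300 bases, 1.85% held a CRE, 7.33% TATAAA and 45% a GC box. AP-1 letters were in 4.95% of windows, TEAD in 14%, M-box in 2.92% and SOX in 16.1%. RefSeq lists a further EGFR window, not printed, with AP-1 letters at -232 and -136, TEAD letters at -114 and TATAAA at -146 and -36. These are matches of letters, and no binding was measured.

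NRG1 encodes a neuregulin that binds ERBB3, and its transcript moved the opposite way to that of this receptor. Its scaled counts were 4.26, 3.73 and 3.47 in shMMP9 cells, against 24.3, 23.9 and 23.5 in shControl cells. The shControl libraries were nearly level, and no shMMP9 library came near them. The mean was 3.82 ± 0.404 in shMMP9 cells and 23.9 ± 0.391 in shControl cells, so the shControl level was 6.26 times that in shMMP9 cells. The log2 change was -2.37 (SE 0.0962, 95% interval -2.58 to -2.17, limma adjusted p = 2.21e-10), the largest change of the set in either direction at this pseudocount. With a pseudocount of 4 it was -1.84, smaller in size than the changes of ERBB3 and AREG. Estimated reads were 94 to 127 per shMMP9 library and 630 to 737 per shControl library.

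Other EGF-family ligands were scarce, apart from NRG2, whose scaled count lay above those of NRG1 and BTC in shMMP9 cells. EPGN had no row, and NRG4 did not pass the filter on low values. EGF stood at 1.33 ± 0.478 in shMMP9 cells and 1.43 ± 0.183 in shControl cells (log2 change -0.08, limma adjusted p = 0.680), and NRG2, another neuregulin, at 8.52 ± 0.494 in shMMP9 cells and 8.55 ± 0.949 in shControl cells (log2 change -0.00, limma adjusted p = 0.992). NRG3 fell, with 0.0949 ± 0.0493 in shMMP9 cells and 0.659 ± 0.117 in shControl cells (log2 change -0.60, limma adjusted p = 0.00103). Among the tested neuregulins, NRG1 thus fell and NRG2 was not called, while the values of NRG3 lay near the floor in both groups. NRG4, which the filter removed, stood the other way, at 0.392 ± 0.214 in shMMP9 cells and 0.0928 ± 0.0681 in shControl cells. No shared direction of the scarce neuregulins can thus be read from NRG3.

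Levels of different genes were compared as scaled count per kilobase of the union of a gene's exons. In shMMP9 cells the order of the receptors was ERBB3 at 38.6 ± 0.315, ERBB2 at 7.18 ± 0.0430 and EGFR at 2.66 ± 0.172, with no overlap between neighbours in this order. In shControl cells ERBB3 stood at 9.30 ± 0.473, ERBB2 at 6.28 ± 0.641 and EGFR at 6.06 ± 0.331, and the libraries of ERBB2 and EGFR overlapped. As a share of the summed receptor level, ERBB3 made up 79.7% ± 0.251 in shMMP9 cells and 43.0% ± 2.08 in shControl cells. ERBB2 made up 14.8% ± 0.0663 in shMMP9 cells and 29.0% ± 2.91 in shControl cells, and EGFR 5.49% ± 0.305 in shMMP9 cells and 28.0% ± 1.66 in shControl cells. The receptor transcripts thus went over to mostly ERBB3, and the summed level was higher, at 48.5 ± 0.507 per kilobase in shMMP9 cells and 21.6 ± 0.129 in shControl cells. With the length of the longest transcript in place of the union of exons, the share of ERBB3 was 76.2% in shMMP9 cells and 40.5% in shControl cells, and in shControl cells ERBB2 (37.5%) then stood above EGFR (22.0%). With no length scaling the order was the reverse in shControl cells, with EGFR (33.7%) above ERBB2 (28.85%).

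Among the 5 ligands of the set that had a row, TGFA led in both groups. It stood at 92.3 ± 0.477 scaled counts per kilobase in shMMP9 cells and 27.4 ± 0.236 in shControl cells. Ligands outside the set, NRG2 among them, were not placed in this order. The next ligand in the order changed. AREG followed in shMMP9 cells, at 21.8 ± 1.28 against 4.21 ± 0.137 in shControl cells, whereas HBEGF, at 4.90 ± 0.320 in shMMP9 cells, was next after TGFA in shControl cells, at 9.68 ± 0.388. BTC stood at 0.817 ± 0.112 in shMMP9 cells and 0.302 ± 0.0318 in shControl cells, and NRG1 at 0.337 ± 0.0357 in shMMP9 cells and 2.11 ± 0.0345 in shControl cells. NRG1 was thus the lowest of these 5 ligands in shMMP9 cells and BTC the lowest in shControl cells, and neighbours in either order did not overlap. With the longest transcript as the length this order held, at a share of 0.451% for NRG1 and 0.572% for BTC in shMMP9 cells and of 7.51% for NRG1 and 0.563% for BTC in shControl cells. With no length scaling NRG1 (0.742%) stood above BTC (0.447%) in shMMP9 cells, and NRG1 (12.2%) stood above AREG (3.52%) in shControl cells. The share of AREG in shMMP9 cells was then 6.97% and that of BTC in shControl cells 0.432%. The shares of NRG1, AREG and BTC thus moved by more than 1.5 times in both groups. Of the summed ligand level, TGFA made up 76.8% in shMMP9 cells and 62.7% in shControl cells, and AREG 18.1% in shMMP9 cells and 9.64% in shControl cells. HBEGF made up 4.08% in shMMP9 cells and 22.1% in shControl cells, NRG1 0.281% in shMMP9 cells and 4.83% in shControl cells, and BTC 0.680% in shMMP9 cells and 0.692% in shControl cells. HBEGF and NRG1 thus held smaller shares, and TGFA and AREG larger ones, in shMMP9 cells. The sum over the 5 ligands was 120 ± 0.654 per kilobase in shMMP9 cells and 43.7 ± 0.726 in shControl cells.

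**Figure D3:**
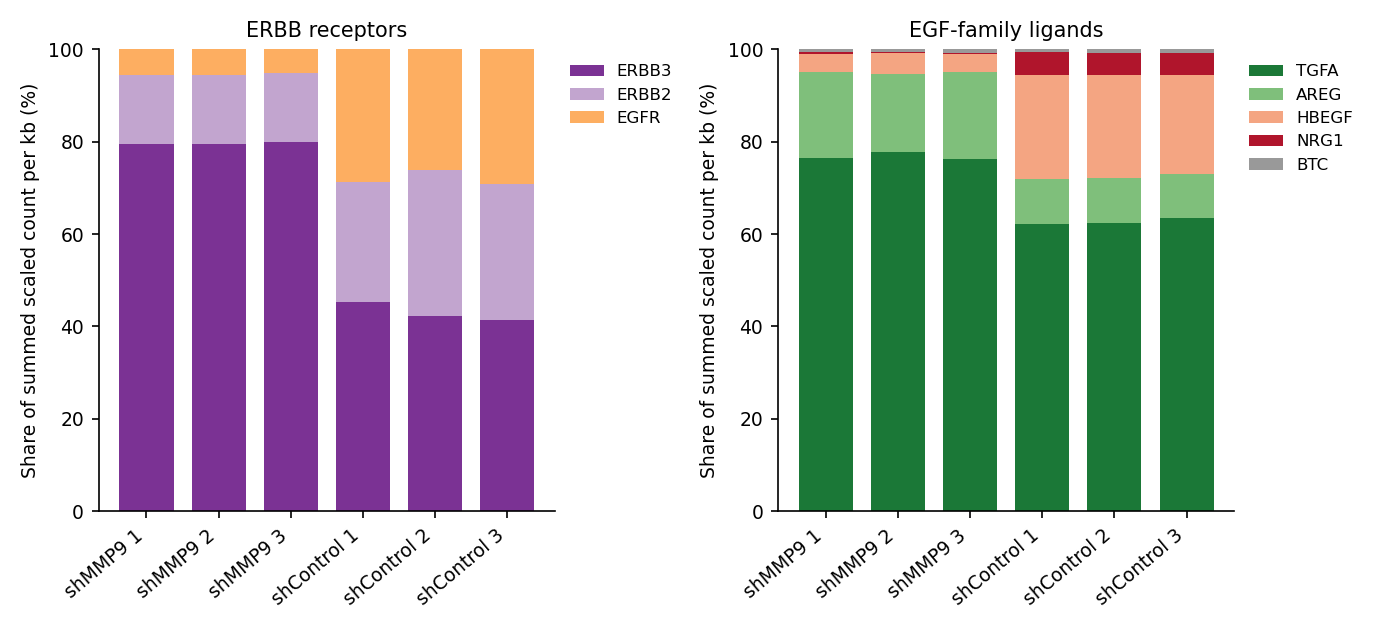
Share of the summed scaled count per kilobase (y axis, percent) held by each receptor (left panel) and each ligand (right panel) in each library, shMMP9 libraries left of shControl libraries. ERBB3 fills 79.5 to 80.0% of the receptor bars in shMMP9 libraries and 41.4 to 45.4% in shControl libraries, and HBEGF and NRG1 fill less of the ligand bars in shMMP9 libraries.

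A ratio of scaled counts within a library does not depend on how libraries were scaled. On scaled counts, which are not per kilobase, the ratio of ERBB3 to EGFR was 10.1, 10.1 and 11.2 in shMMP9 libraries, against 1.14, 1.17 and 1.02 in shControl libraries. The ratio of TGFA to HBEGF was 31.0, 29.2 and 32.9 in shMMP9 libraries, against 4.55, 4.59 and 4.85 in shControl libraries. Neither ratio overlapped between groups. The log2 ratios were taken from log2(scaled count + 1), so they depend to a degree on the pseudocount. Their difference, shMMP9 minus shControl, was 3.20 for ERBB3 to EGFR, 1.85 for ERBB3 to ERBB2, 1.36 for ERBB2 to EGFR, 2.68 for TGFA to HBEGF, 3.15 for AREG to HBEGF and 4.12 for TGFA to NRG1. With no pseudocount the differences were 3.24, 1.86, 1.38, 2.73, 3.35 and 4.40 for these ratios, and with one of 4 the last pair were 2.69 and 3.56. The ratio of ERBB3 to EGFR was named beforehand, but with earlier results of these data known. The others were chosen after the values were seen. In an exact two-sided permutation test over the libraries, each of the 6 ratios gave p = 0.1 (0.1 after Benjamini-Hochberg adjustment), the smallest p that 3 against 3 libraries allow.

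AREG (ENSG00000109321.10, chromosome 4, 74445134 to 74455009, plus strand) and BTC (ENSG00000174808.11, 74744759 to 74794686, minus strand) lie in a cluster of EGF-family genes that also holds EPGN and EREG and spans 486 kb. Both measured genes of the cluster rose, and the nearest tested genes on its flanks were MTHFD2L, a mitochondrial folate enzyme (log2 change 0.21, limma adjusted p = 0.114), and PARM1, a mucin-like membrane protein (log2 change 0.45, limma adjusted p = 0.00521). EGFR lay between SEC61G, a translocon subunit (log2 change 0.02, limma adjusted p = 0.910), and LANCL2 (log2 change 0.07, limma adjusted p = 0.471), neither of which was called. EGFR-AS1 overlaps EGFR on the opposite strand, and the protein-coding gene AC034102.2 overlaps ERBB3 on the same strand. Neither had a row, and their part in the reads of EGFR and ERBB3 is not known. Next to ERBB3, only 814 bases away, PA2G4, which encodes an ERBB3-binding protein, had a log2 change of -0.07 (limma adjusted p = 0.202), and RPS26 on the other side rose by 0.35 (limma adjusted p = 0.00325).

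TGFA lay between FAM136A (log2 change -0.20, limma adjusted p = 0.00490) and ADD2, an adducin of the membrane skeleton, which fell (log2 change -1.34, limma adjusted p = 6.31e-10) while TGFA rose. HBEGF (ENSG00000113070.7, chromosome 5, 140332843 to 140346631, minus strand) lay between PFDN1, a prefoldin subunit (log2 change -0.32, limma adjusted p = 0.000139), and ANKHD1 (log2 change 0.03, limma adjusted p = 0.581). NRG1 (ENSG00000157168.18) spans 31639386 to 32767959 on the plus strand of chromosome 8. Its nearest tested neighbours were WRN, a RecQ helicase (log2 change -0.19, limma adjusted p = 0.178), and the long noncoding RNA AC090204.1, which fell (log2 change -0.68, limma adjusted p = 0.000832). The nearest tested neighbours of EGFR, ERBB3, TGFA, HBEGF, AREG and NRG1 thus changed by less than these genes did. Those of BTC, with AREG among them, and of ERBB2 did not: next to ERBB2, PNMT had a log2 change of 0.33 (limma adjusted p = 0.0311) and GSDMB one of -0.29 (limma adjusted p = 0.0953).

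Over the 6 libraries, the genes nearest to AREG in pattern were named by the root mean square difference of centred log2 values, among 7869 genes with a mean scaled count of 20 or more. They were PLAT, tissue plasminogen activator (difference 0.0445, log2 change 2.22), TRIB2, a pseudokinase (0.0712, log2 change 2.15), and HTRA1, a secreted serine protease (0.0764, log2 change 2.10). PLAT stood at 348 in shMMP9 cells and 73.8 in shControl cells. Nearest to NRG1 were KRT80, a keratin (difference 0.104, log2 change -2.29), NUAK2, an AMPK-related kinase (0.105, log2 change -2.26), and OR51B5, an olfactory receptor gene (0.114, log2 change -2.43). With only 6 libraries in 2 groups, such likeness reflects mainly a like-sized group difference.

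The proteases that release the ligands and their partners were split. Of 13 tested, 8 rose (61.5%, where 25.0% of all tested genes did) and 5 fell (38.5%, where 32.5% did). The median log2 change was 0.40, where that of all tested genes was -0.05. The fall in ADAM17, the main sheddase of TGFA, AREG and HBEGF, was slight, at 66.1 ± 1.74 in shMMP9 cells and 74.2 ± 1.73 in shControl cells (log2 change -0.16, limma adjusted p = 0.0125). ADAM10, the main sheddase of BTC, stood at 166 ± 8.09 in shMMP9 cells and 116 ± 2.28 in shControl cells (log2 change 0.50, limma adjusted p = 1.54e-06). ADAM19, which can cleave neuregulin, rose by 0.86 and FRMD8, which stabilises the complex of ADAM17 with inactive rhomboids, by 0.91. ADAM15 fell by 0.89, ADAM9 by 0.48, RHBDF2, an inactive rhomboid, by 0.57 and the rhomboid protease RHBDL2 by 0.38. The inactive rhomboids were split: RHBDF1 rose by 0.56, with 72.2 ± 7.35 in shMMP9 cells and 48.5 ± 3.83 in shControl cells. RHBDF2 was less abundant, with 12.1 ± 0.810 in shMMP9 cells and 18.6 ± 2.53 in shControl cells. The count of falls was 3 without shMMP9 replicate 3, without shControl replicate 3 and under either other scaling, by median of ratios or by total reads.

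Adaptors and effectors that bind the receptors showed no common direction. Of 24 tested, 10 rose (41.7%, where 25.0% of all tested genes did), 7 fell (29.2%, where 32.5% did) and 7 were not called. The median log2 change was 0.01. PIK3R1, a regulatory PI3K subunit, rose by 0.99 and SHC4, an SHC adaptor known from melanoma, by 1.25. PLCG1, a phospholipase recruited to EGFR, fell by 0.73 and GAB2, a docking protein, by 1.07. GRB7 did not pass the filter on low values.

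Negative regulators of the receptors were mixed, and most were not called. Of 17 tested, 6 rose (35.3%, where 25.0% of all tested genes did), 2 fell (11.8%, where 32.5% did) and 9 were not called, and the median log2 change was 0.10. Under either other scaling 9 rose. ERRFI1 (MIG6), an inhibitor that binds the EGFR kinase domain, stood at 424 ± 9.28 in shMMP9 cells and 140 ± 6.69 in shControl cells (log2 change 1.59, limma adjusted p = 1.74e-11). SOCS5, known to promote EGFR degradation, stood at 50.6 ± 1.65 in shMMP9 cells and 18.9 ± 1.75 in shControl cells (log2 change 1.37, limma adjusted p = 3.36e-09). The phosphatase PTPRJ rose by 0.64 and UBASH3B, which binds the ubiquitin ligase CBL, by 0.60. STUB1, a chaperone-linked ubiquitin ligase, fell by 0.52 and EPS15, an endocytic adaptor, by 0.27.

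Among 12 tested transcription factors linked to ERBB3 or ERBB2, 6 rose and 5 fell, with a median log2 change of 0.25. These were 50% and 41.7%, where 25.0% of all tested genes rose and 32.5% fell. SOX10, a neural crest factor known to act on ERBB3, stood at 785 ± 40.6 in shMMP9 cells and 378 ± 18.4 in shControl cells (log2 change 1.05, limma adjusted p = 3.38e-09). TFAP2B had the largest rise of the list, with 77.8 ± 2.07 in shMMP9 cells and 9.55 ± 0.975 in shControl cells (log2 change 2.90, limma adjusted p = 3.20e-12). TFAP2C rose by 0.64 and FOXD3, a neural crest factor, by 1.64. The other rises were those of FOXO1, by 0.85, and PAX3, by 0.55. The fall of TFAP2A was 0.78 and that of MITF, the melanocyte master regulator, 0.34, and CTBP1, CTBP2 and FOXO3 fell by 0.18, 0.14 and 0.19. ZNF217 was not called (log2 change -0.05, limma adjusted p = 0.402). The AP-2 factors thus did not move together. The count of falls was 3 without shControl replicate 3, without shMMP9 replicate 1 or 3, under either other scaling and with no trend in the variance.

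Genes that report ERK pathway output, which lies downstream of the receptors and of BRAF alike, mostly rose. Of 10 tested, 8 rose (80%, where 25.0% of all tested genes did) and 2 fell (20%, where 32.5% did). The median log2 change was 0.83. SPRY4, a feedback inhibitor, stood at 204 ± 5.0 in shMMP9 cells and 48.8 ± 2.67 in shControl cells (log2 change 2.04, limma adjusted p = 3.22e-12). DUSP6, a phosphatase of ERK, rose by 1.44 and SPRY2, a relative of SPRY4, by 1.46. EPHA2, an ephrin receptor, fell by 1.52, and CCND1, which encodes cyclin D1, by 0.60.

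Other receptor tyrosine kinases changed in both directions. Of 21 tested, 9 rose, 9 fell and 3 were not called, which were TYRO3, FGFR2 and EPHB4, and the median log2 change was 0.08. Rises and falls each held 42.9%, where 25.0% of all tested genes rose and 32.5% fell. FLT1, a VEGF receptor, stood at 55.9 ± 3.06 in shMMP9 cells and 7.85 ± 0.852 in shControl cells (log2 change 2.69, limma adjusted p = 1.79e-11), and KDR, another VEGF receptor, rose by 1.20. AXL, a receptor known from invasive melanoma cells, stood at 283 ± 1.65 in shMMP9 cells and 661 ± 58.5 in shControl cells (log2 change -1.22, limma adjusted p = 1.82e-09). ROS1 fell by 2.44 to a low level, 1.36 ± 0.263 in shMMP9 cells against 11.8 ± 1.37 in shControl cells. KIT and RET had no row.

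**Figure D4:**
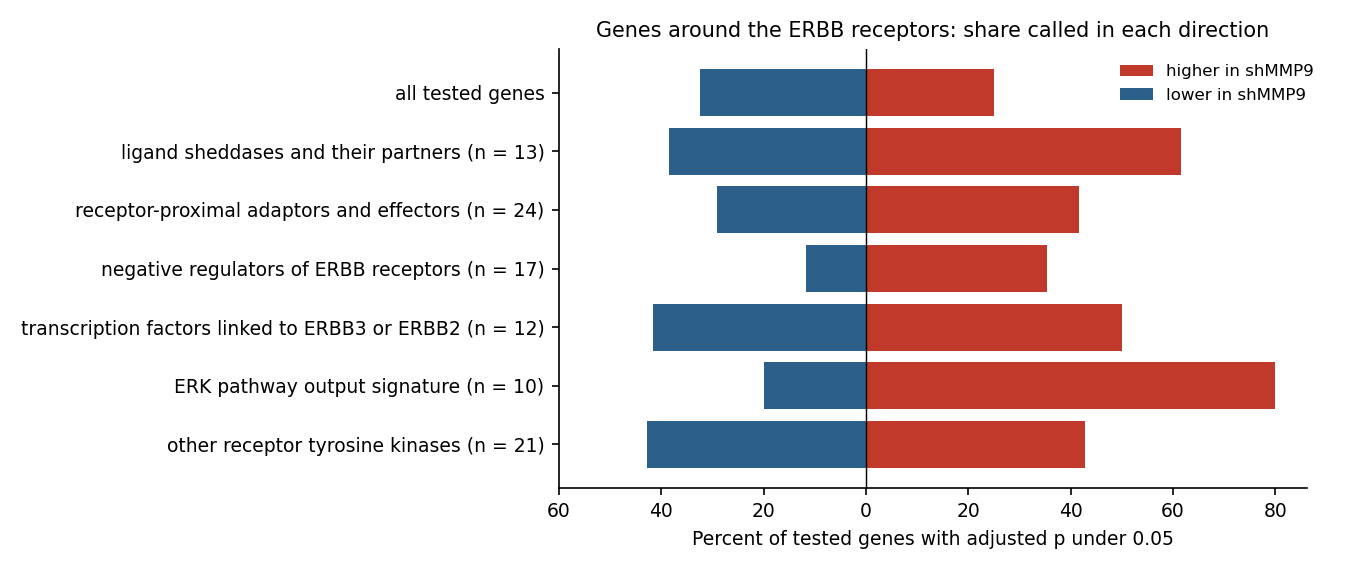
Percent of tested genes called higher in shMMP9 cells (red, to the right) and lower (blue, to the left) at an adjusted p under 0.05, for all tested genes and for 6 lists of genes around the receptors, with n the number tested. The list of ERK pathway output genes has 80% called higher, beside 25.0% of all tested genes, and the other receptor tyrosine kinases have equal shares, 42.9%, on both sides.

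The label of the cells as melanoma was set against marker genes. Of the melanocytic lineage markers 7 passed the filter. Of these, 4 rose (57.1%, where 25.0% of all tested genes did) and 2 fell (28.6%, where 32.5% did). The summed scaled count of the markers was 2064 to 2182 in shMMP9 libraries and 1212 to 1338 in shControl libraries. SOX10 and CSPG4, a melanoma surface proteoglycan (751 ± 25.5 in shMMP9 cells and 430 ± 45.8 in shControl cells), were abundant. S100A1 rose by 2.74 and S100B by 1.48, MCAM fell by 0.30, and MITF fell as given above. Pigment cell genes were scarce: PMEL stood at 1.76 ± 0.274 in shMMP9 cells and 1.70 ± 0.186 in shControl cells and was not called (log2 change 0.03, limma adjusted p = 0.876), MLANA and TYRP1 were below the filter, and TYR and DCT had no row. The rise of ERBB3 thus came with a higher sum of lineage markers, most of which was SOX10 and CSPG4. MITF and MCAM fell and PMEL was not called, so the markers did not rise as a whole. The part of these markers in the rise of ERBB3 was not tested.

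Markers of other cell types moved as well, and some were as abundant as the ligands. Of 5 tested keratinocyte markers 3 rose (60%, where 25.0% of all tested genes did) and 2 fell (40%, where 32.5% did). Their sum was 145 to 156 in shMMP9 libraries and 96.9 to 107 in shControl libraries. KRT10 held most of that sum, with 112 ± 3.73 in shMMP9 cells and 71.6 ± 6.12 in shControl cells. KRT14, whose close homologues may share reads with it, stood at 19.7 ± 1.53 in shMMP9 cells and 4.04 ± 0.482 in shControl cells. KRT15 rose by 0.74, SFN fell by 1.62 and DSC3 by 0.28, KRT5 was below the filter, and KRT1, DSG3 and TP63 had no row.

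The fibroblast markers mostly fell. Of 6 tested, 5 fell (83.3%, where 32.5% of all tested genes did) and 1 rose (16.7%, where 25.0% did). Their sums were 42.3 to 47.2 in shMMP9 libraries and 61.9 to 69.4 in shControl libraries. COL1A1, a fibrillar collagen, stood at 3.15 ± 0.496 in shMMP9 cells and 18.4 ± 1.85 in shControl cells (log2 change -2.23, limma adjusted p = 2.99e-09). FAP, a surface protease, stood at 0.719 ± 0.0507 in shMMP9 cells and 4.65 ± 0.838 in shControl cells (log2 change -1.71, limma adjusted p = 1.82e-07). LUM fell by 0.77, DCN by 0.41 and PDGFRB by 0.43, and COL1A2, COL3A1 and THY1 were below the filter. COL6A3, the most abundant of these markers in shMMP9 cells, rose by 0.59, with 20.4 ± 0.943 there and 13.2 ± 0.573 in shControl cells.

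Of 7 tested endothelial markers 2 rose and 2 fell (28.6% each, where 25.0% of all tested genes rose and 32.5% fell). Their sum was 23.3 to 27.1 in shMMP9 libraries and 56.8 to 65.9 in shControl libraries. TIE1 held most of the sum in shControl cells, so the lower sum in shMMP9 cells lay mainly in this gene. KDR held most of the sum in shMMP9 cells, with 16.1 ± 0.537 there and 6.44 ± 0.414 in shControl cells. TIE1, an endothelial receptor, fell by 3.20, with 4.56 ± 0.617 in shMMP9 cells and 49.9 ± 3.41 in shControl cells. CDH5 fell by 0.67 near the floor, with 0.110 ± 0.0646 in shMMP9 cells and 0.769 ± 0.217 in shControl cells. KDR rose by 1.20 and PECAM1 by 0.47, while VWF, TEK and ESAM were not called and CLDN5 had no row. Of 4 tested leukocyte markers 1 rose (25%, where 25.0% of all tested genes did) and 2 fell (50%, where 32.5% did). Their sum was 99.0 to 102 in shMMP9 libraries and 115 to 137 in shControl libraries. LYZ rose by 1.29, CD68, which held most of the sum, fell by 0.38 and CSF1R by 0.56, CD14 was not called (log2 change 0.19, limma adjusted p = 0.368), and PTPRC, CD3E and ITGAM had no row. The count of keratinocyte markers that fell was 1 without shControl replicate 2, without shMMP9 replicate 2 and under either other scaling, and the count of endothelial markers that rose was 1 without shControl replicate 1 or 2 and without shMMP9 replicate 1 or 2. The part of any of these markers in the changes of the receptors and ligands was not tested.

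**Figure D5:**
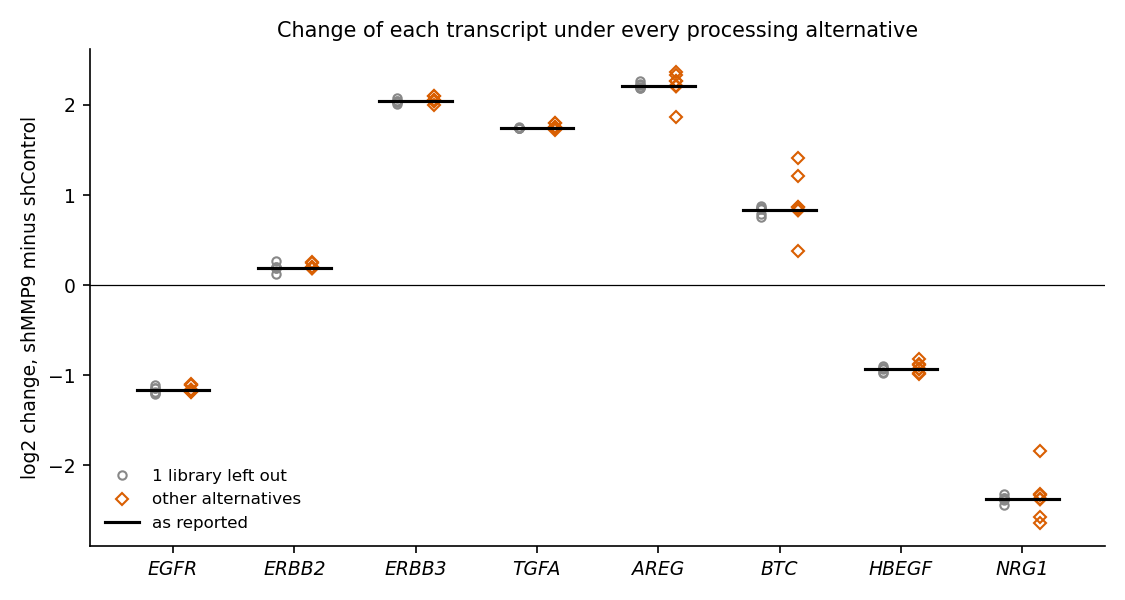
Log2 change, shMMP9 minus shControl (y axis), of each of the 8 genes as reported (black line), with each library left out in turn (grey circles) and under the other processing alternatives (orange diamonds). No gene crosses 0, BTC spreads from 0.38 to 1.41 and NRG1 from -2.64 to -1.84, and ERBB2 stays between 0.12 and 0.26.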

How the data were processed

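RNA from 6 A375 libraries, 3 of shMMP9 and 3 of shControl cells, was compared, with group and replicate number read from the labels. STAR 2.6.1d, Partek and hg38 are named, per the submitters' processing notes. In the sources used here the counting method, annotation, strand setting and library kit are not given. Although the deposited table is named for counts, its values are on a log2 scale, log2(scaled count + 1). On the linear scale the 75th percentile was 45.3 to 45.4 in every library, and 64.5 to 67.8% of values were whole multiples of a step within 0.01 reads, which gave the estimated reads. Each gene in the table had 1 estimated read or more in all libraries, so a gene without a row need not be silent. Read numbers speak of counting error only.

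The filter asked for 10 reads at median depth in 3 libraries and 15 reads in all; it kept 17194 genes and removed 1345, and 23 symbols had become dates and were left unnamed. The deposited log2 values were tested with limma 3.58.1 (R 4.3.3, variance trend), without further scaling, and the script was checked on simulated data. Ratios within libraries were tested with exact permutation (scipy 1.17.1). Positions, transcripts and exon lengths came from GENCODE on GRCh38 and promoters from RefSeq; ERBB3 had no promoter entry. Named genes are all members, the called genes of a list with the smallest adjusted p (up to 4), any member of a count of 5 or fewer, the 3 genes nearest in pattern to the largest rise and fall, and genomic neighbours. RHBDF1, FOXO1 and PAX3 were named in addition. The members and lists were chosen with earlier results of these data known. Alternatives were other scalings, pseudocounts, filter, test, variance model and threshold, a replicate block, and each library left out. Figures were drawn with matplotlib 3.10.9.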

Additional observations from a re-analysis of the deposited data

How the results depend on the processing

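Of the 8 receptors and ligands, 7 kept their direction and their call by limma under all 15 alternatives, and none of the 8 reversed. ERBB2 was the exception, with a log2 change of 0.19 that was not called with no variance trend (adjusted p = 0.0827) or at a threshold of 0.01 (0.19, adjusted p = 0.0230). With 1 library left out, its log2 change ran from 0.12 to 0.26, and the call was kept only without shControl replicate 2; the cause was not tested. Ranges over the alternatives were 2.00 to 2.10 for ERBB3, -1.21 to -1.10 for EGFR, 1.72 to 1.80 for TGFA, 1.86 to 2.37 for AREG, -0.98 to -0.82 for HBEGF, -2.64 to -1.84 for NRG1 and 0.38 to 1.41 for BTC, whose size the pseudocount sets. Scaling by median of ratios moved the median of all genes from -0.05 to -0.00 and gave 4949 genes higher and 4946 lower; scaling by total reads gave 4988 and 4898. Replicate numbers did not pair the samples: deviations of same-numbered libraries correlated at 0.0402, -0.13 and -0.0258. With a replicate block, 5 of the genes were called higher and 3 lower, and 4211 of all genes higher and 5486 lower. Of 420 counts over gene lists under the alternatives, 391 stayed within 1.5 times the reported count and 29 did not. Depth limits BTC and the NRG1 values of shMMP9 cells, and genes without a row cannot be judged.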
